A study of Mus musculus with 18 samples.

Results

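The 44 genes described here encode the proteins that license replication origins, unwind and copy DNA and supply deoxynucleotides. They were listed by name and role, with earlier results of these data known, and all 44 had reads in every library, out of 14002 genes listed in any library. The cells were RAW264.7, a macrophage-like line of transformed mouse cells. Newly made RNA was marked with 4-thiouridine (4sU), a uridine analogue whose chemical conversion makes some T positions read as C. Cytoplasmic lysates were split into an input, fragmented RNA that reports the mRNA level, and ribosome footprints, fragments shielded by a monosome during RNase I digestion.

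No genotype or treatment other than the 4sU labelling time distinguished the groups. The 6 lysates of experiment 1 came from cells given 4sU for 0, 20, 40, 60, 90 or 120 min, and the 3 of experiment 2 from cells given it for 20, 30 or 40 min. Each of the 9 lysates gave 1 input and 1 footprint library, so the 60, 90 and 120 min times and the unlabelled cells had 1 lysate each. The labels do not state whether lysates were separate cultures, and p-values therefore measure only the spread between these samples.

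Replication is prepared in G1 phase, when the origin recognition complex, Cdc6 and Cdt1 load the ring of Mcm2 to Mcm7 onto DNA. In S phase Cdc45 and the GINS complex turn that ring into the active helicase, and polymerases alpha, delta and epsilon copy the strands with the help of the clamp Pcna and its loader RFC. Many of these genes are known targets of E2F factors and are transcribed around the G1 to S transition, and ribonucleotide reductase makes the deoxynucleotides that limit synthesis. In such bulk samples fewer cells in S phase and less mRNA per cell cannot be told apart.

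The 44 genes took 0.754% to 0.868% of input reads and 0.898% to 0.989% of footprint reads. Input libraries of experiment 1 were the shallowest, with 6230562 to 7933796 reads, and a single member held as few as 79 reads there. Experiment 2 was deeper, with 26359243 to 48139330 input reads. Footprint libraries held 11771175 to 87536081 reads. All 12 macrophage markers examined had reads in every library, at a summed input level of 7164 to 9034 CPM (reads scaled to a library of 1000000 reads). Of 20 markers of other cell types, such as Cd3e and Epcam, 5 were listed at all and 0 in every library, with a summed level of at most 0.706 CPM in input.

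Relative amounts within the complexes were compared per 1000 coding bases, since longer mRNAs give more reads. Coding lengths came from the annotation, and which region of each gene the authors counted is not stated. In footprints the 6 subunits of the Mcm2 to Mcm7 ring lay between 163 ± 16.1 for Mcm2 and 295 ± 11.1 CPM per 1000 coding bases for Mcm3 (SD, n = 9 libraries), a 1.81-fold range. In input the same ring spanned a 2.49-fold range, with Mcm5 highest at 293 ± 40.8 and Mcm4 lowest at 118 ± 13.3 (SD, n = 9). The 3 subunits of RPA, which coats single-stranded DNA, spanned 1.64-fold in footprints and 1.35-fold in input. RPA thus did not share the narrower footprint range of the ring. Both complexes have their subunits in equal number, and whether levels follow subunit number was not tested.

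The origin recognition complex was less even. Its largest subunit, Orc1, was the lowest of the 6 at 10.5 ± 3.71 CPM per 1000 coding bases in footprints, against 118 ± 20.6 for Orc6, the highest (SD, n = 9), an 11.2-fold range. Orc2, Orc3, Orc4 and Orc5 lay between 47.2 and 61.0, and Orc2, Orc4 and Orc5 did not differ beyond their SDs. In the GINS complex Gins3 was lowest at 45.1 ± 7.58 and Gins1 highest at 165 ± 8.37. Gins2 and Gins4 did not differ beyond their SDs, at 104 ± 13.5 and 105 ± 6.84. Orc1 and Gins3 were also the lowest of their complexes in input.

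**Figure D1:**
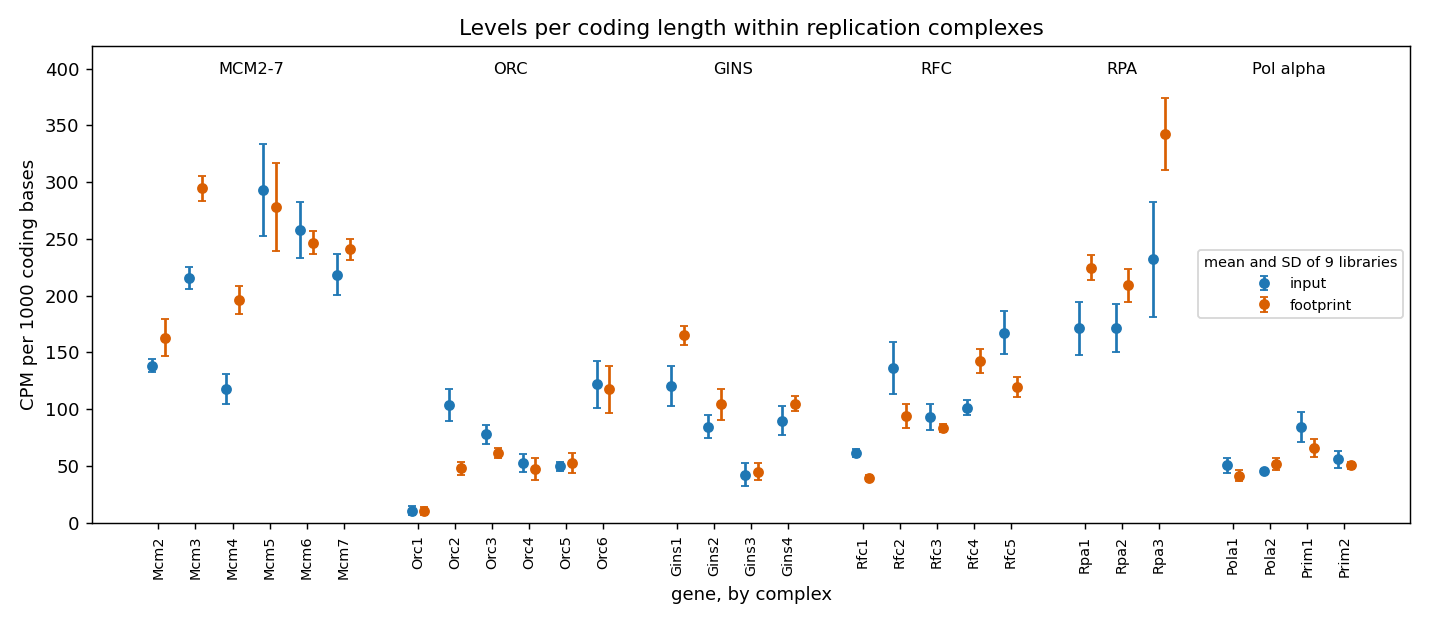
CPM per 1000 coding bases (y axis, linear from 0) of the subunits of 6 replication complexes (x axis), as the mean and SD of 9 input libraries (blue) and 9 footprint libraries (orange). Orc1 sits lowest in its complex at 10.5 in footprints, while the Mcm2 to Mcm7 footprints stay between 163 and 295.

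Footprints were next compared with input, a ratio that reports how densely ribosomes occupied an mRNA. Replication mRNAs were mostly denser in ribosomes: 24 of 44 were higher in footprints, against 35.3% of the 10592 genes tested, 6 were lower, against 40.3%, and 14 were not called. Calls here and throughout are Benjamini-Hochberg adjusted p under 0.05 over all genes tested, here in edgeR's quasi-likelihood test. The median log2 difference of the 44 was 0.32, beside -0.04 for all genes tested. In single lysates the median of the 44 ranged from 0.11 to 0.48, and that of all genes from -0.10 to 0.01.

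The gene with the highest ratio was Rrm2, in deoxynucleotide supply, where 4 of 4 genes were higher. Rrm2, the regulated small subunit of ribonucleotide reductase, had a footprint level of 499 to 690 normalised CPM (median 639, n = 9 libraries) and an input level of 131 to 243 (median 199). The groups did not overlap, and the footprint level was 3.22-fold higher (log2 1.69 ± 0.10 SE, adjusted p = 1.1e-09). The large subunit Rrm1 was 1.78-fold higher (log2 0.83 ± 0.07). Mean Rrm2 thus exceeded mean Rrm1 per coding length in footprints, at 499 ± 69.6 against 338 ± 28.4 (SD, n = 9). In input mean Rrm2 was the lower, at 183 ± 46.2 against 223 ± 7.68 (SD, n = 9). The input ranges overlapped, at 115 to 241 for Rrm2 and 209 to 233 for Rrm1. Thymidine kinase Tk1 and thymidylate synthase Tyms were higher by log2 0.51 ± 0.10 and 0.39 ± 0.10.

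Lig1, the ligase that joins Okazaki fragments, followed Rrm2. Its footprint level was 212 to 325 normalised CPM (median 273) and its input level 60.4 to 127 (median 105, n = 9 libraries each). Every footprint library lay above every input library, and the ratio was 2.56-fold (log2 1.35 ± 0.13, adjusted p = 2.3e-07). Fen1, the flap nuclease of the same step, was higher by log2 0.41 ± 0.09. The RPA subunits were all higher, from Rpa2 at 0.51 ± 0.09 to Rpa3 at 0.80 ± 0.13. Lig1 and Fen1 share exonic bases with genes on the opposite strand, Zswim9 and Tmem258, and no source used here says whether strand was used in counting.

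Within the helicase 4 of 6 core subunits were higher. Mcm4 led at 0.97 ± 0.06, followed by Mcm3 at 0.68 ± 0.05, Mcm2 at 0.46 ± 0.07 and Mcm7 at 0.37 ± 0.06. Mcm5 and Mcm6 were at 0.15 ± 0.09 and 0.16 ± 0.08, and they passed the call with each lysate as a replicate block (adjusted p = 0.046 and 0.028). The 4 GINS subunits were higher, from Gins3 at 0.33 ± 0.11 to Gins1 at 0.70 ± 0.09, but Gins3 was not called in experiment 1 alone (log2 0.22). Mcm7 also shares 84 and 88 annotated exonic bases with the microRNA genes Mir25 and Mir93 on the same strand.

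Cdt1 and Cdc6, the loaders of the Mcm ring, were higher by 0.63 ± 0.11 and 0.53 ± 0.10, as was Orc5 by 0.30 ± 0.08. Orc1 was at 0.22 ± 0.10 (adjusted p = 0.066), and passed the call with lysate as a replicate block (adjusted p = 0.0040). Orc2 was the gene with the lowest ratio. Its footprint level was 70.1 to 102 normalised CPM (median 89.8) and its input level 137 to 226 (median 158, n = 9 libraries each). All 9 footprint libraries lay below all 9 input libraries, and the level was 1.85-fold lower (log2 -0.89 ± 0.10, adjusted p = 6.5e-07).

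The copying machinery was mixed, with 4 genes higher and 4 lower among the polymerase subunits, the clamp and its loader. Of 9 polymerase subunits 2 were higher, Pola2 by 0.40 ± 0.06 and Pold2 by 0.21 ± 0.07, and Pold1, the catalytic subunit of polymerase delta, was lower (-0.30 ± 0.08). The call of Pold2 held in 15 of 16 alternatives. The clamp loader was split, with Rfc4 higher by 0.72 ± 0.07 and Rfc1, Rfc2 and Rfc5 lower (-0.41 ± 0.06, -0.30 ± 0.10 and -0.26 ± 0.08). Pcna was higher by 0.33 ± 0.09. Cdc45 was lower at -0.24 ± 0.10 (adjusted p = 0.033), a call that held in only 8 of 16 alternatives. In experiment 2 alone Orc2 and Rfc1 were the 2 lower genes. Gins2, Mcm7, Tk1, Orc2, Orc4, Orc6, Rfc2, Rfc4, Rfc5 and Cdc45 share exonic bases with opposite-strand protein-coding genes, the longest stretch being that of Gins2 with Gse1. Pole2 shares 245 exonic bases with a protein-coding gene on the same strand, and Pcna and Tyms have annotated pseudogenes. The values of all these genes are less certain, here and in the comparisons that follow.

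**Figure D2:**
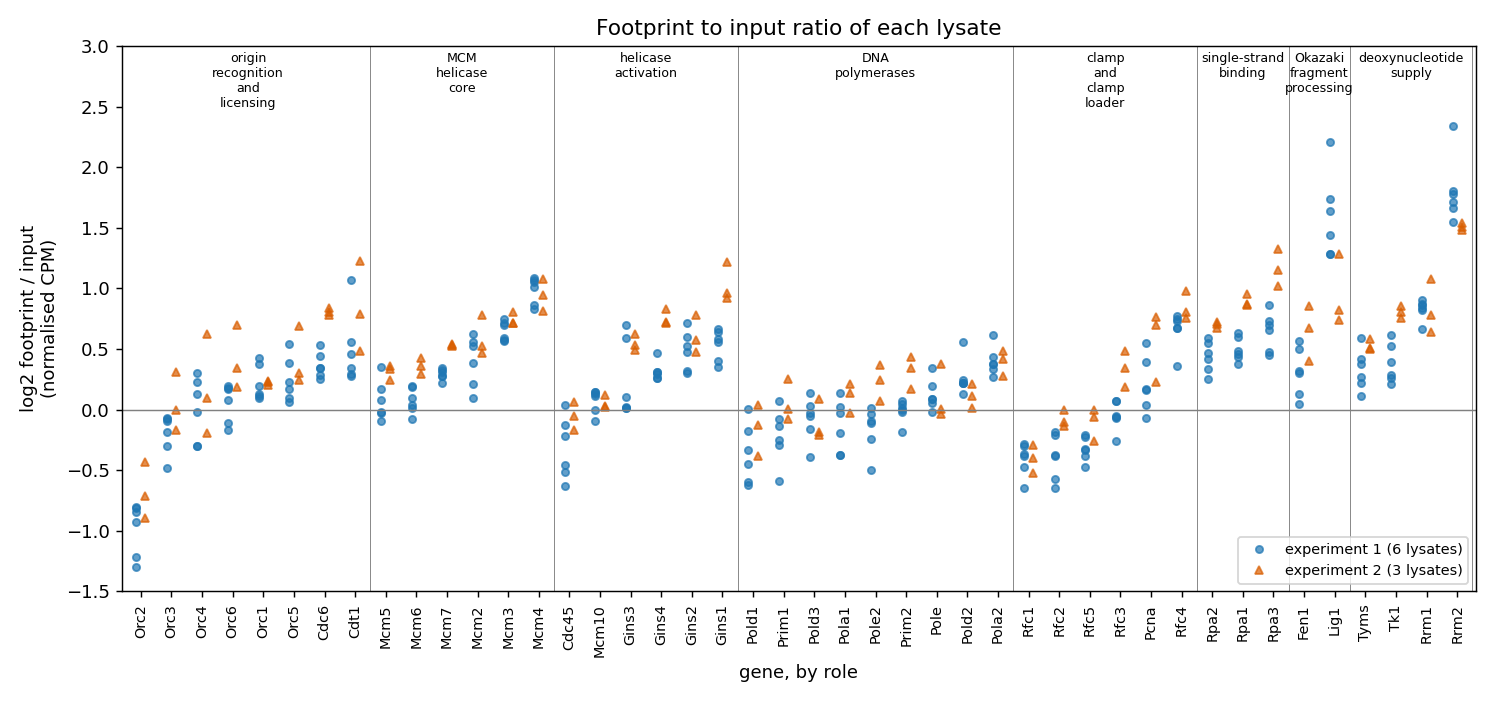
Log2 ratio of footprint to input level (y axis) of each of 44 genes (x axis, grouped by role), with 1 point per lysate of experiment 1 (blue circles, 6 lysates) and experiment 2 (orange triangles, 3 lysates). Rrm2 and Lig1 lie highest, and Orc2 is below 0 in all 9 lysates.

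Neighbouring processes gave different counts. Of 24 other nucleotide supply genes 19 were higher and 1 was lower, with a median log2 difference of 0.49, and Dck, deoxycytidine kinase, stood at 1.72 ± 0.09. Of 34 replication-dependent histone genes tested 29 were higher and 0 lower in edgeR's test (median 1.01). Of 38 other replisome and fork proteins 15 were higher and 12 lower (median 0.03), with Dbf4 and Topbp1, which act in origin firing, at -2.12 ± 0.13 and -1.73 ± 0.07. Of 11 replication checkpoint genes 2 were higher and 5 lower (median -0.18), among them the kinase Atr at -1.08 ± 0.08. The 27 genes of the G1 to S list were split, with 11 higher and 10 lower. Mitosis genes (17 of 26 higher, 5 lower) and macrophage markers (7 of 12 higher, 2 lower) both had a median of 0.40. A higher ratio was thus not particular to replication genes.

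New synthesis was read from the share of reads with at least 1 T-to-C conversion. In unlabelled input the median of the 44 genes was 0.221%, a background, and in unlabelled footprints it was 0.232%. Early footprint medians were near this background. They were 0.302% and 0.214% after 20 min in experiments 1 and 2, and 0.323% after 30 min. These early libraries count as much as later ones in the comparisons of labelling below. After 120 min the input median of the 44 was 6.92%, beside 8.04% for all genes measured, and in footprints it was 4.94% beside 6.29%. The lowest gene in input at 120 min was Rfc2 at 2.74% and the highest was Gins3 at 55.0%. As bands of counting error, the 95% Wilson intervals of those shares were 1.91% to 3.91% and 47.5% to 62.3%.

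Gins3 had the steepest course of the 44. Its converted share in input of experiment 1 was 0.410% without label and 1.78%, 8.57%, 24.5%, 35.7% and 55.0% after 20, 40, 60, 90 and 120 min. In footprints of the same lysates it was 0.383%, 1.28%, 6.39%, 15.2%, 34.2% and 48.4%. Experiment 2 gave 1.09%, 5.18% and 7.79% in input after 20, 30 and 40 min and 0.579%, 1.48% and 2.82% in footprints. The share thus rose with time in both experiments and both materials, and footprints were below input in every labelled lysate.

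**Figure D3:**
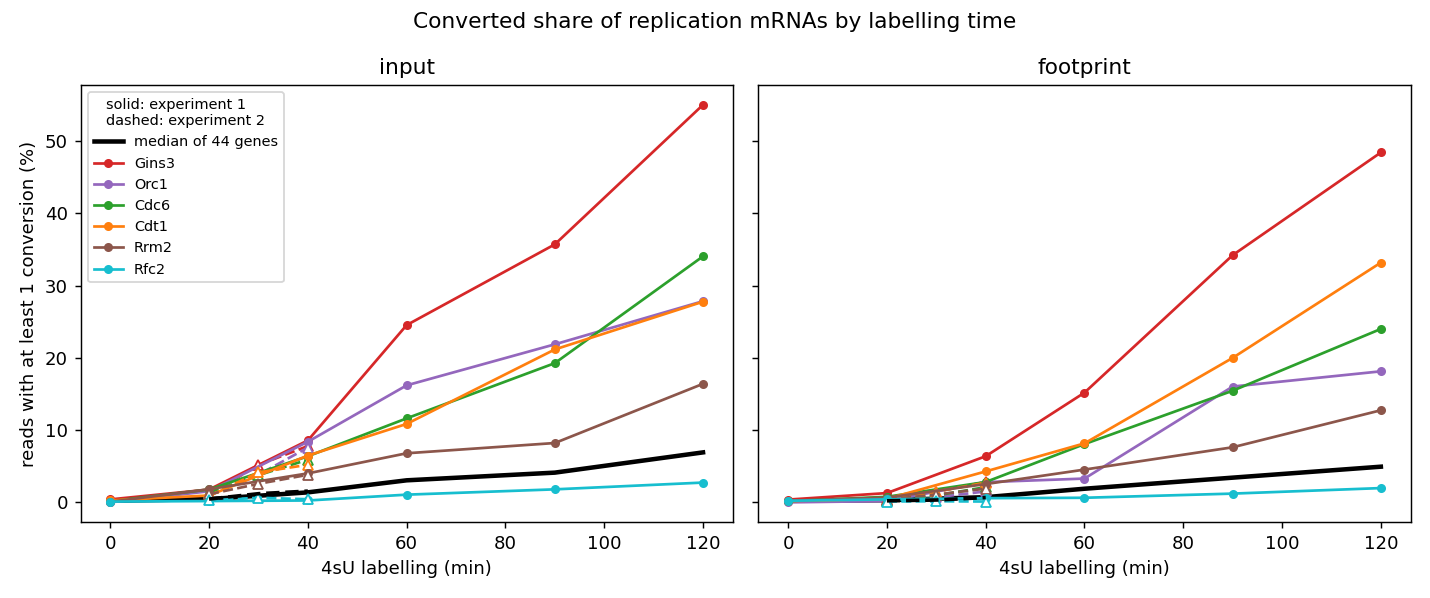
Share of reads with at least 1 conversion (y axis, percent) against labelling time (x axis, min) in input (left) and footprints (right), for 6 named genes and the median of the 44 (black). Solid lines with circles are experiment 1 and dashed lines with open triangles experiment 2. At 120 min Gins3 reaches 55.0% in input while the median stands at 6.92%.

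To compare genes across labelling times, each log2 odds of conversion was set against the median over genes of its library and tested against 0 over the 8 labelled libraries of a material by limma. Values above 0 mark mRNA labelled faster than the median gene of its library. In input 7 of the 44 genes were above the library median, against 35.2% of 7045 genes tested, and 22 were below, again against 35.2%. The median of the 44 was -0.46, beside -0.03 for all genes tested. In footprints 8 were above, against 32.5% of 6778 genes, and 21 below, against 32.6%, with a median of -0.47 beside -0.04.

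The fast-labelled genes came from several roles. Gins3 was at 2.31 ± 0.26 SE in input and 2.41 ± 0.26 in footprints. The licensing genes Orc1, Cdc6 and Cdt1 were at 1.83 ± 0.17, 1.68 ± 0.15 and 1.44 ± 0.20 in input, and at 0.82 ± 0.26, 1.31 ± 0.23 and 1.66 ± 0.26 in footprints. In input each of these 4 lay above the median in 8 of 8 libraries.

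Fen1 (0.98 ± 0.13), Rrm2 (0.94 ± 0.14) and Rpa2 (0.58 ± 0.16) completed the input set, also in 8 of 8 libraries each. In footprints the same 7 were called, and Pcna joined them at 0.57 ± 0.19, a call that held in 9 of 15 alternatives. Partners of the same complex thus differed: Rpa2 was above the median while Rpa1 and Rpa3 were below it at -0.91 ± 0.20 and -1.47 ± 0.28. Rrm2 was above and Rrm1 below at -0.53 ± 0.18. Gins3 was above, while Gins2 and Gins4 were below at -0.74 ± 0.15 and -1.15 ± 0.25.

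The converted shares of Rrm2 in experiment 1 input were 0.0751%, 1.81%, 4.01%, 6.79%, 8.21% and 16.4% over the 6 times. Those of Cdc6 were 0.152%, 1.78%, 6.38%, 11.6%, 19.3% and 34.1%, and those of Cdt1 0.271%, 0.950%, 6.48%, 10.9%, 21.2% and 27.8%. From 20 min on, where the median of the 44 was 0.449%, these genes therefore exceeded that median in every input library of the experiment.

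Of the 22 slowly labelled genes in input 8 were polymerase subunits and 3 were subunits of the clamp loader, and the other 11 were spread over the remaining roles. Of 9 polymerase subunits 8 were below the median in input and 0 above, with Pold1 lowest at -1.52 ± 0.21. In footprints 8 were below and 0 above, with Prim1, the catalytic primase subunit, lowest at -1.74 ± 0.22. Some of these calls were fragile: Pold2 in input held in 7 of 15 alternatives and was not called with experiment as a replicate block (adjusted p = 0.065), and in footprints Pold3 held in 5 of 14 and Pole2 in 5 of 8. At an unadjusted p under 0.05 no polymerase subunit was above the median in either material. Rfc2 at -1.78 ± 0.20, Rfc5 at -1.17 ± 0.16 and Rfc1 at -1.0 ± 0.20 were below in input, as were Cdc45 at -1.34 ± 0.18 and Orc3 at -1.22 ± 0.17.

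Of the 6 core helicase subunits only Mcm5 was called, at -0.51 ± 0.14 in input and -0.54 ± 0.15 in footprints. Lig1 was below the median at -0.93 ± 0.19 in input and -1.76 ± 0.24 in footprints. Experiment 2 alone, with 3 labelled lysates up to 40 min, gave 8 genes above and 13 below in input, of 40 tested, against 31.6% and 27.4% of all genes. In footprints it gave 5 above and 5 below, of 29 tested, against 31.5% and 19.3%. The share below the median was thus nearer to that of all genes in experiment 2 than over both experiments.

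**Figure D4:**
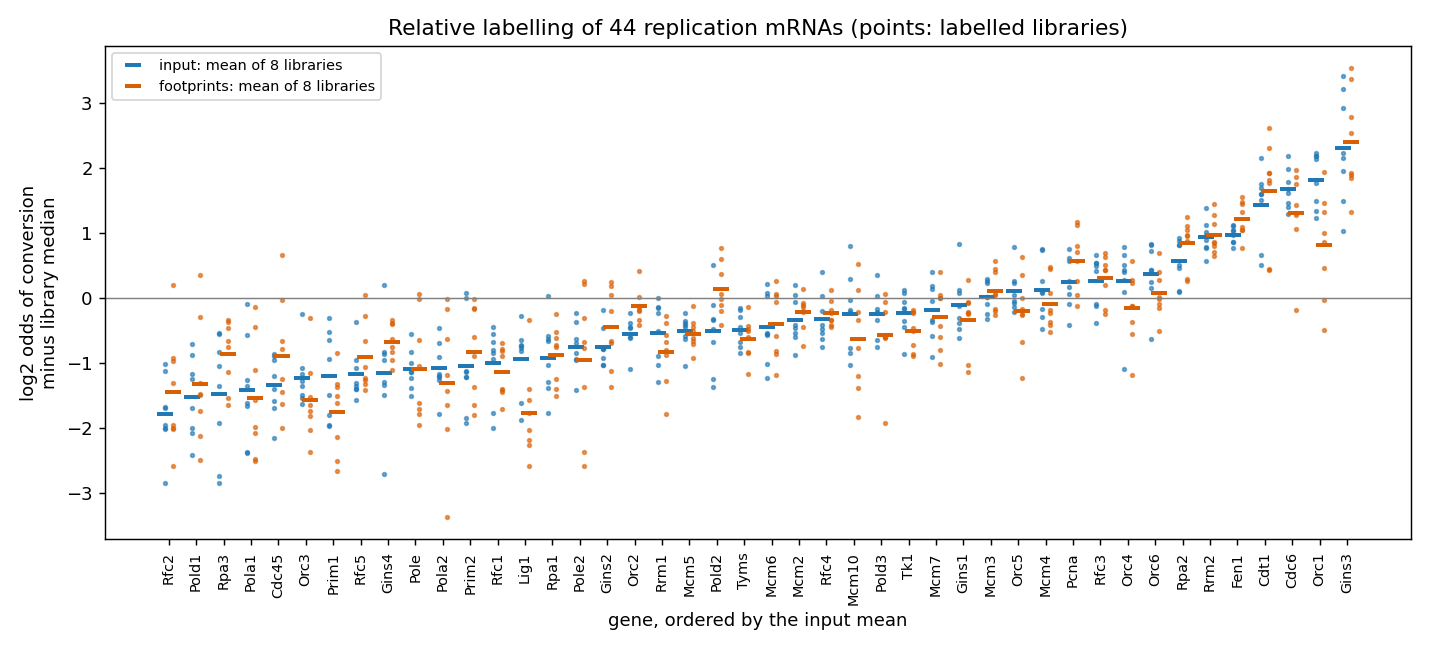
Log2 odds of conversion minus the median over genes of the library (y axis) for 44 genes ordered by their input mean (x axis), with 1 point per labelled library and the mean of 8 libraries as a bar, in input (blue) and footprints (orange). The right end holds Gins3, Orc1, Cdc6, Cdt1, Fen1, Rrm2 and Rpa2, and the left end Rfc2 and Pold1.

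Other cell-cycle lists placed these values. All 34 histone genes tested were above the library median in input (median 1.85). Of 25 genes of the G1 to S list 17 were above and 3 below (median 0.93), with E2f3 at 1.87 ± 0.15 and the cyclin Ccne1 at 1.62 ± 0.17. Of 11 checkpoint genes 7 were above, among them the kinases Chek1 at 1.65 ± 0.17 and Wee1 at 1.96 ± 0.25. Of 35 other replisome genes 9 were above and 13 below, from the firing factor Ticrr at 2.48 ± 0.21 to the maintenance methyltransferase Dnmt1 at -1.42 ± 0.15. Of 21 other nucleotide supply genes 1 was above and 15 below.

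Across the 44 genes the input and footprint values of relative labelling were alike (Pearson r = 0.93, Spearman rho = 0.91). The points share lysates and gene sequence, and genes are not replicates. Relative labelling in input and 3' UTR length gave r = -0.02 but rho = 0.20. Relative labelling showed little correlation with the percent T of the coding sequence (r = -0.05, rho = -0.06). The same held for the number of ATTTA motifs per 1000 bases of 3' UTR (r = -0.03, rho = 0.07). These correlations are descriptions over 44 genes.

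Promoters were read next. The list did not use promoter sequence, but many of its genes are known E2F targets, so the share of sites is not independent of the list. An E2F-type site was searched as TTTCCCGC, TTTGGCGC, TTTCGCGC or TTTGCCGC on both strands in the 250 bases before the RefSeq start (GRCm38.p6), and matches may overlap. Of 37 members with an entry 9 held at least 1 match (24.3%), beside 583 of 27025 genes (2.16%). The 27025 are all genes with an entry, including genes not listed in these data. They were Mcm5, Mcm6, Mcm7, Gins3, Orc1, Orc3, Cdc6, Pola1 and Rfc3, a set with both fast-labelled genes (Gins3, Orc1, Cdc6) and slowly labelled ones (Pola1, Orc3). Mcm4, Gins1, Gins2, Gins4, Prim2, Pole and Rfc2 had no entry. A match is a description of letters and not a bound site. Stretches from 4 genes that lie outside the annotated gene are shown, on the strand of the gene and with the matches in capitals, because they show the site in a core helicase pair, in a polymerase and in an origin recognition gene.
Mcm5: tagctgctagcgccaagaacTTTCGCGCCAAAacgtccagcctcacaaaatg
Mcm6: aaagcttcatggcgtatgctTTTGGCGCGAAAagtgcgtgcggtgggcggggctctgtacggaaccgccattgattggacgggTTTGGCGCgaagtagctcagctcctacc
Pola1: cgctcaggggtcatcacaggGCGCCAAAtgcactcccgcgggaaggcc
Orc3: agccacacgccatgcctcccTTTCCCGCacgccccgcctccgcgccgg
They stand at chr8:75109336-75109387 (plus strand), chr1:128359725-128359835 (minus strand), chrX:93632266-93632313 (minus strand) and chr4:34614956-34615003 (minus strand). In Mcm5 and in the first run of capitals of Mcm6, matches on opposite strands overlap.

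The next comparison asked whether new mRNA of these genes was represented in footprints as in input. It was lower in footprints for 37 of the 44 genes and higher for 0, in edgeR's fit of converted and unconverted reads over 16 labelled libraries. Of all 8276 genes 59.4% were lower and 0.145% higher, so most genes behaved so. At an unadjusted p under 0.05, 39 of 44 differed, and limma with lysate as a replicate block also gave 37 lower and 0 higher, of which 36 were the same genes: Rfc2 was not called (adjusted p = 0.15) and Prim2 was (adjusted p = 0.026). The median log2 odds ratio was -0.94, beside -0.79 for all genes tested.

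The lowest values were those of Lig1 (-1.83 ± 0.26) and Orc1 (-1.81 ± 0.31). Orc1 reads in experiment 1 were converted in 8.39%, 16.2%, 21.9% and 27.8% of input and in 2.80%, 3.29%, 16.03% and 18.1% of footprints after 40, 60, 90 and 120 min. Footprints were below input in all 8 labelled lysates. Lig1 reads carried fewer T positions in footprints than in input, 5.34 against 6.02 per read at 120 min, though not at 60 min, with 6.09 against 6.01, and the part of this in the result was not tested. The 7 genes not called were Gins2, Gins4, Cdc45, Orc2, Prim2, Pold2 and Rpa3.

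When each value was taken relative to the median over genes of its lysate, an alternative added after the data were seen, 1 of the 44 was lower and 0 were higher, against 0.556% and 0.483% of all genes. The median of the 44 was then -0.08. Experiment 2 alone gave 41 lower genes with a median of -1.46, beside 83.0% of all genes and a median of -1.33. Experiment 1 alone gave 27 with a median of -0.62, beside 27.3% and -0.45, so all genes shifted between the experiments too. That the deficit differs between the experiments was not tested, and the labelling times differ too.

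Levels were then followed over labelling time. In input 3 of the 44 genes fell with hours of 4sU, against 5.83% of 9927 genes, and 0 rose, against 0.403%, in edgeR's test. At an unadjusted p under 0.05, 6 of 44 moved, beside 2589 of the 9927 genes. DESeq2's Wald test called 1 of the 44 higher and 4 lower, against 3.50% and 9.45% of genes. In footprints 3 fell, against 13.4% of 10226 genes, and 12 rose, against 7.03%. The median slope of the 44 was 0.11 per hour on the log2 scale in input and 0.13 in footprints, beside -0.02 and 0.00 for all genes tested. These fits held no term for experiment, so level differences between the experiments can enter the slopes. With experiment as a replicate block the medians of the 44 were 0.076 in input and 0.106 in footprints, beside 0.015 and 0.021. The gap to all genes was thus smaller in both materials.

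The genes called falling were Cdc6, Cdt1 and Mcm10 in input and Cdc6, Mcm10 and Orc1 in footprints. These counts were near the share of all genes in input and below it in footprints. Cdc6 in input of experiment 1 stood at 92.1, 91.2, 95.5, 75.5, 52.4 and 52.2 normalised CPM after 0, 20, 40, 60, 90 and 120 min, and in experiment 2 at 101, 96.0 and 101 after 20, 30 and 40 min. All libraries up to 40 min were thus above those from 60 min on, and the slope was -0.56 ± 0.11 per hour (adjusted p = 0.020). Its footprint level fell as well, with a slope of -0.67 ± 0.19 per hour (adjusted p = 0.028), from 110, 116 and 121 to 102, 75.7 and 63.6 in experiment 1. The fit held no term for experiment, and Cdc6 footprints stood higher in experiment 2, which ended at 40 min. The call held in 11 of 14 alternatives, with slopes from -0.86 to -0.45 per hour.

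Mcm10, which recruits polymerase alpha to the helicase, fell in both materials, with slopes of -0.43 ± 0.09 per hour in input and -0.35 ± 0.10 in footprints. Its input level in experiment 1 was 102, 95.8, 98.5, 88.3, 76.4 and 60.4 normalised CPM. Cdt1 fell in input, with a slope of -0.33 ± 0.07 (adjusted p = 0.026) and was not called in footprints (-0.26 ± 0.20), where the 60 min library was high at 203 against 107 to 138 in the other libraries of experiment 1.

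Orc1 had the steepest slope in footprints, -0.74 ± 0.15 per hour (adjusted p = 0.0080). Its footprint level fell from 29.5, 28.9 and 27.3 normalised CPM at 0, 20 and 40 min to 21.6, 18.9 and 13.6 at 60, 90 and 120 min of experiment 1. In input the slope was -0.69 ± 0.18 and missed the call (adjusted p = 0.053), but it was called with experiment as a replicate block, at -0.50 ± 0.08 (adjusted p = 0.0051).

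The rising footprint levels were smaller. They were those of Mcm2, Mcm5, Mcm6 and Mcm7 in the core helicase, with Mcm5 highest at 0.28 ± 0.08 per hour. The others were Gins2 (0.31 ± 0.08), Gins4 (0.21 ± 0.06), Pola1 (0.31 ± 0.08), Prim1 (0.30 ± 0.07), Rfc2 (0.26 ± 0.07), Rpa1 (0.20 ± 0.05), Rpa3 (0.23 ± 0.07) and Lig1 (0.27 ± 0.07). Of these 12 calls 0 held in all 14 alternatives. Rpa3 held in 4 of 14 and was not called with experiment as a replicate block (adjusted p = 0.057). Mcm2, Mcm7 and Gins4 held in 6 of 14, Mcm5 and Mcm6 in 8, and Gins2, Pola1 and Prim1 in 12. Gins2 footprints in experiment 1 went from 56.1, 59.9 and 61.2 normalised CPM up to 40 min to 75.3, 73.6 and 80.3 from 60 min on, without overlap.

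These slopes rest on the late lysates, which are 1 per time. Without the 90 min lysate 0 of the 44 were called in input and 0 rose and 1 fell in footprints. Without the 120 min lysate 0 were called in either material. The input counts over all genes were then 16 and 0. The input count was 1 without the 20 min lysate of experiment 2. Counts of rising footprints also dropped to 5 and 4 without the 20 min lysate of experiment 1 or of experiment 2, and to 7 without the unlabelled lysate.

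**Figure D5:**
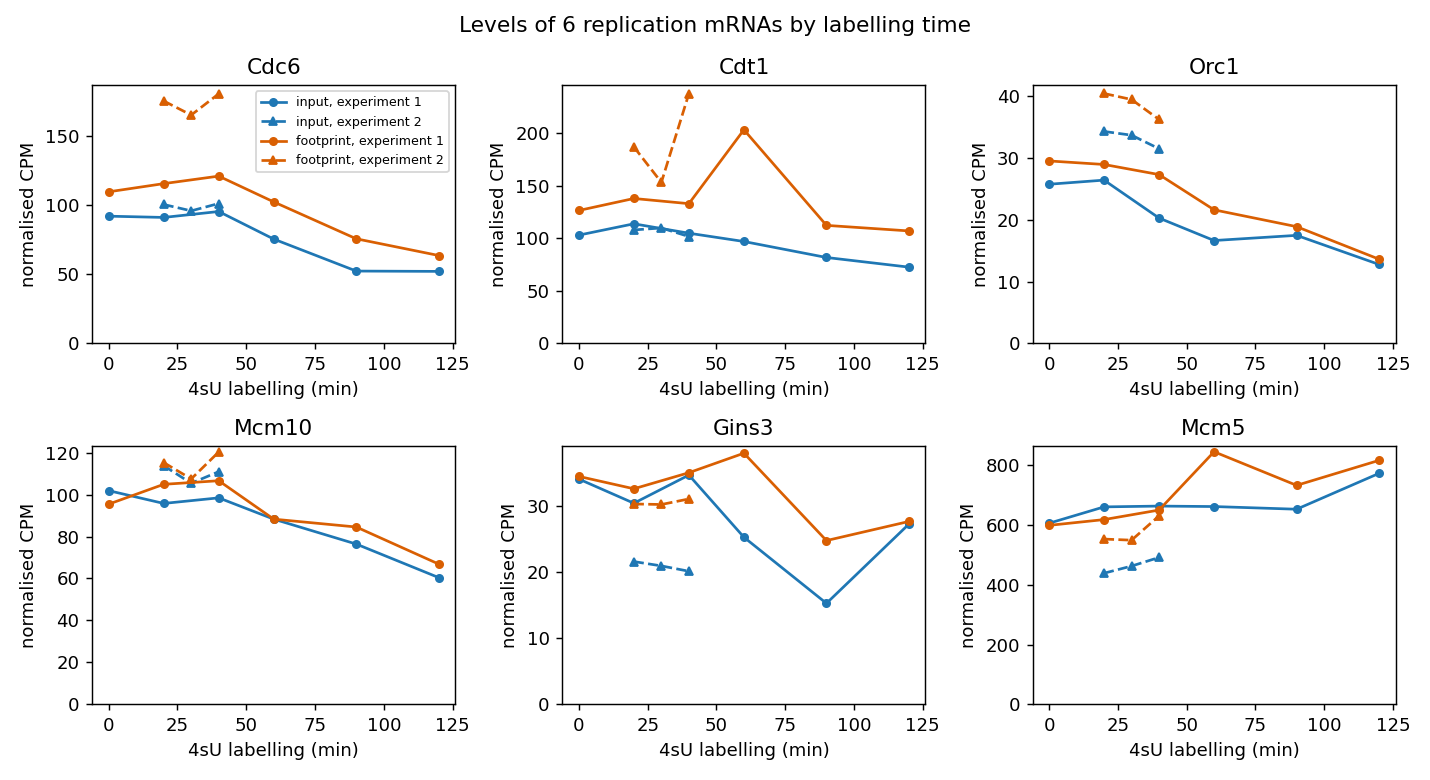
Normalised CPM (y axis, from 0) of 6 replication genes against labelling time (x axis, min) in input (blue) and footprints (orange), with 1 point per library. Circles and solid lines are experiment 1 and triangles and dashed lines experiment 2. Cdc6, Cdt1, Orc1 and Mcm10 are lowest in input at 120 min, and Cdc6 footprints of experiment 2 lie above those of experiment 1.

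Over the 44 genes relative labelling and slope in input were related at r = -0.67 (rho = -0.51). Both values come from the same libraries and genes are not replicates. Of the 7 fast-labelled genes Gins3 and Rrm2 had slopes of -0.20 ± 0.18 and -0.19 ± 0.17 in input that were not called, and those of Fen1 and Rpa2 were above 0, at 0.09 and 0.15, and not called either. Mcm10, among the lowest slopes, was at -0.24 in relative labelling. Among the checkpoint genes 3 of 11 fell in input and 7 of 11 in footprints, with Wee1 at -0.53 ± 0.10 and -0.55 ± 0.09 per hour. Of the 27 genes of the G1 to S list 3 fell in input and 8 in footprints, with the phosphatase Cdc25a at -1.01 ± 0.17 and -1.36 ± 0.18.

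The footprint to input ratio itself was not shown to change with labelling time. In edgeR's test of the product of material and hours, 0 of 10592 genes were called (0% of genes higher and 0% lower), and 255 had an unadjusted p under 0.05. Of the 44 genes 0 were called and 0 had such a p, and DESeq2's Wald test called 9 genes in all. Slopes of the ratio lay between -0.20 per hour for Orc5 and 0.23 for Lig1, with a median of 0.01.

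The experiments differed in level, in a fit that also held hours of 4sU. In input 25 of the 44 were lower in experiment 2, against 25.7% of genes, and 6 were higher, against 25.2%. Rpa3 was lowest (-0.64 ± 0.10), and Orc1 highest (0.62 ± 0.09). In footprints 2 were higher, Cdc6 by 0.68 ± 0.11 and Orc1 by 0.55 ± 0.09, against 8.52% of genes, and 1 was lower, Tyms (-0.36 ± 0.07), against 6.16%. Cdc6 footprints stood at 176, 165 and 181 normalised CPM in experiment 2, above the 63.6 to 121 of experiment 1. Library depth also differed between the experiments, and these cannot be told apart.

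The footprint to input ratio was in consequence compared between the experiments, a test added after the data were seen. It was higher in experiment 2 for 11 of the 44 genes, against 12.4% of genes, and lower for 1, Lig1, against 11.9%. The median difference of the 44 was 0.24 on the log2 scale, beside 0.06 for all genes tested. Without the 20 min lysate of experiment 2, 1 gene remained higher. Lig1 was not called without that lysate, without the 30 min lysate of experiment 2 or without the 20 min lysate of experiment 1.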

How the data were processed

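The authors deposited raw read counts for every gene, 1 column for each pair of a T content (0 to 20 per read) and a count of T-to-C changes (0 to 3). The meaning was inferred from headings and values: 0 reads had more conversions than T positions. The aligner was Bowtie 0.12.8 and the genome mm10, per the submitters' processing notes. For the counting program, its annotation and the region counted, nothing is given in the sources used here. Fragments of 25 to 35 nt were selected, per the labels' protocols. All 18 libraries were used, with 6230562 to 87536081 reads, and intervals cover counting error only.

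Levels were fitted with edgeR 4.0.16 in R 4.3.3 (quasi-likelihood test, TMM scaling, low-count filter), over all genes. Footprints against input held a term for labelling time, slopes were per hour of 4sU, and change of the ratio was the interaction of material with hours. The standard error was the estimate over the square root of F. Conversion used edgeR's design for methylation counts. Relative labelling used limma 3.58.1 on log2 odds with a pseudocount of 0.5, with no background subtracted. Genes entered conversion fits at 50 reads per library on average and 50 converted reads in sum. Tests were two-sided, and fits were tested on simulated data. Gene positions and lengths came from GENCODE M21 and promoters from RefSeq, both GRCm38.

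Input and footprints of 1 lysate are paired by the protocol, and their profiles correlated at 0.115 to 0.550 once material means were removed. Alternatives were DESeq2 1.42.0 size factors and Wald test, no filter, lysate or experiment as a replicate block, single experiments, leaving out each lysate, other minimums and pseudocounts, conversions per T and background subtraction. The members and the gene lists were chosen with earlier results of these data known. Named are, per role, the called genes with the highest and lowest estimates and members of 1 complex together, and of each other list up to 3 genes with the smallest adjusted p. Other members were named after their values were seen. A marker of another cell type is not reported here and was left out of its list.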

Additional observations from a re-analysis of the deposited data

Results flagged for a closer look

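The footprint to input ratio of 12 of the 44 genes differed between the experiments by edgeR's test of the product of material and experiment, which was added after the data were seen (Benjamini-Hochberg adjusted p under 0.05 over all genes). On the log2 scale it was higher in experiment 2 for Rpa3 (0.53 ± 0.12 SE), Gins1 (0.50 ± 0.11), Cdc6 (0.44 ± 0.09), Gins4 (0.44 ± 0.09), Tk1 (0.42 ± 0.10), Rpa1 (0.40 ± 0.09), Pole2 (0.39 ± 0.13), Rfc3 (0.39 ± 0.10), Prim2 (0.33 ± 0.10), Mcm6 (0.28 ± 0.10) and Mcm7 (0.24 ± 0.08). It was lower for Lig1 (-0.64 ± 0.18). Of all 10592 genes tested 12.4% were called higher and 11.9% lower, so such calls were common among all genes. In Gins1 the 3 ratios of experiment 2 were 0.92 to 1.21 and the 6 of experiment 1 were 0.35 to 0.67, so the groups did not overlap. With lysate as a replicate block Mcm6 and Mcm7 were not called (adjusted p = 0.056 and 0.068). Without the 20 min lysate of experiment 2, Gins1 was the 1 gene still called higher. Depth and labelling times differ between the experiments too, and their part in these values was not tested.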

How the results depend on the processing

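The split of footprints against input held under most alternatives, but experiment 2 alone gave 2 lower genes in place of 6. For slopes, DESeq2's Wald test gave 1 rising gene in input and 5 falling in footprints, no low-count filter gave 3 rising in footprints, and experiment as a replicate block gave 1 rising in input (Mcm4). Pairing by lysate as a replicate block moved no other count of footprints against input or of conversion by over 1.5 times. Leaving out each lysate in turn gave 0 to 4 falling genes in input, 0 to 13 rising and 0 to 4 falling in footprints, 3 to 6 genes higher in experiment 2 in input (3 without its 20 min lysate), and 1 to 16 higher and 0 to 1 lower for the ratio between experiments. Relative labelling in experiment 2 alone gave 13 genes below the median in input, and 5 above and 5 below in footprints. DESeq2 called 3 genes lower in footprints of experiment 2, in place of 1. Relative to the lysate median, in a paired fit with a replicate block, 1 gene kept a lower conversion in footprints, and 9 changed sign: Mcm2 (0.021), Pcna (0.23), Gins3 (0.0029), Cdt1 (0.12), Pold1 (0.10), Rfc2 (0.25), Rfc5 (0.18), Rpa2 (0.17) and Fen1 (0.15). That alternative subtracts the shift of all genes by its construction, and the cause of the other changes was not tested. Input depth in experiment 1 limits the early shares: Gins3 rested on 4 converted reads of 225 at 20 min.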

Other observations

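Mitosis genes act after replication in the cell cycle. Of 26 genes 17 were higher in footprints than in input and 5 lower, against 35.3% and 40.3% of all genes, with a median log2 difference of 0.40 beside 0.32 for the 44 replication genes, and the kinase Plk1 stood at 1.37 ± 0.09 and the ubiquitin-conjugating enzyme Ube2c at 1.30 ± 0.05. Mki67, a proliferation marker, was at -1.46 ± 0.11. In relative labelling of input 5 were above the library median and 8 below (median -0.01), from Aurka at 1.53 ± 0.20 to the cyclin Ccnb2 at -1.0 ± 0.18. With hours of 4sU 4 fell in input, and 9 fell and 1 rose in footprints, with Aurka at -0.42 ± 0.07 and -0.49 ± 0.08 per hour.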
